A study of Homo sapiens with 48 samples.

Results

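Adrenomedullin (ADM) and 39 genes of hypoxia and glycolysis, 40 in all, were followed in breast cancer cells. The study describes these cells as carrying only 1 of the insulin receptor substrates, IRS-1 or IRS-2. The genes were taken as a fixed list of names, and each was measured by the brightest of the probe sets that the array annotation assigns to that symbol alone. Of the 40 genes, 38 had such a probe set, among 19775 genes that did, and carbonic anhydrase 9 (CA9) and the lactate exporter SLC16A3 were not analysed here. The list had been drawn up without a threshold on measured values, but with earlier results of these data in view.

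The cells were T47D-YA, a variant of the T47D breast cancer line that, per the study, has no IRS proteins of its own. Per the study's methods, the protein was put back stably under hygromycin selection, as IRS-1 or IRS-2, and 2 clones of each were profiled. Clones #10 and #20 are labelled IRS-1, clones #1 and #6 IRS-2. All cells were starved in serum-free medium (SFM) for 24 h, then given SFM+FN alone or with insulin-like growth factor I (IGF-I, dose not given in the labels), and RNA was taken after a further 4 h or 24 h. Each of the 16 groups, formed by clone, time and treatment, held 3 arrays lettered A, B and C, 48 in all. No label says whether those 3 arrays came from separate cultures, so p-values measure the spread between arrays, which may be technical. Every group is of 1 clone, and cells with no IRS protein are not analysed here. Values are log2 levels of a GeneChip Human Genome U133 Plus 2.0 array made with GC-RMA, which corrects each probe for background by its base composition.

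IGF-I binds its receptor, a tyrosine kinase, and IRS-1 and IRS-2 are the docking proteins through which the receptor reaches the PI3K and MAP kinase pathways. The hypoxia-inducible factors, heterodimers of an oxygen-labile alpha subunit such as HIF1A and the stable partner ARNT, bind short DNA elements and switch on genes for glucose uptake, glycolysis, vessel growth and oxygen sensing. Prolyl hydroxylases of the EGLN family mark the alpha subunit for destruction when oxygen is present, and growth factor signalling through PI3K and mTOR can raise HIF1A protein in normal oxygen. Breast tumours are known for high glycolysis, and ADM is a secreted peptide that widens vessels and promotes their growth.

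The stretches of 250 bases just before the annotated starts of 4 members whose levels moved at 4 h (ADM, KDM3A, PFKFB3 and EGLN3) are shown because all 4 are known hypoxia-responsive genes. They are RefSeq reference sequence of build GRCh38.p14, 5′ to 3′ along the gene's strand, and capitals mark ACGTG or GCGTG, the forms of the HIF core element, on either strand.
ADM, chr11:10304823-10305072, plus strand: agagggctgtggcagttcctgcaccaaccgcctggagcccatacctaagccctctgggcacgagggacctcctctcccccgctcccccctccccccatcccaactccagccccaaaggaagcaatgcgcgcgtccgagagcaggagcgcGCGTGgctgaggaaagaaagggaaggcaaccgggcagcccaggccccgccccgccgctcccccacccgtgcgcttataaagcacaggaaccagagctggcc
KDM3A, chr2:86441121-86441370, plus strand: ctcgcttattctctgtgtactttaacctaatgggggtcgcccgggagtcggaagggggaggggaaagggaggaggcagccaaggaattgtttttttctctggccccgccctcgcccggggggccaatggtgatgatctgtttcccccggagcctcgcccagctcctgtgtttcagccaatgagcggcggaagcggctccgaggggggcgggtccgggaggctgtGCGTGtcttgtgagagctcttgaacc
PFKFB3, chr10:6144671-6144920, plus strand: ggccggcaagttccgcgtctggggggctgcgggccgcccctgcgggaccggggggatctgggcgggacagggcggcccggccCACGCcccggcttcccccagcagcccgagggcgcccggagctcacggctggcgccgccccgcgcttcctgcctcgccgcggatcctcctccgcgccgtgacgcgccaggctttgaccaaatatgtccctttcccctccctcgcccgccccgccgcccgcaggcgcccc
EGLN3, chr14:33951075-33951324, minus strand: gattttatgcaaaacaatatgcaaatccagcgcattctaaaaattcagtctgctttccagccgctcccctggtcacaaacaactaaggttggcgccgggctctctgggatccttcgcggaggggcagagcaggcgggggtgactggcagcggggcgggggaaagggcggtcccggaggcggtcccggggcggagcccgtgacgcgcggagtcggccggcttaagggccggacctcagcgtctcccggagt
The ADM window held 1 GCGTG, KDM3A 1 and PFKFB3 1 (read on the opposite strand, as CACGC), and EGLN3 neither form. KDM3A and PFKFB3 have 2 listed starts each, and the window of the one listed first by RefSeq is printed; the other window of KDM3A held 1 GCGTG and that of PFKFB3 held 2 ACGTG. RefSeq windows were found for 34 of the 38 measured members, 60 in all, some of them overlapping. ACGTG or GCGTG stood in 36 of those 60 windows (60%), against 43.2% of all 35116 windows of the same length. ACGTG stood in 23 of the 60 (38.3% against 18.5% of all windows) and GCGTG in 22 (36.7% against 32.2%), some windows holding both. A match says only that these letters lie in the window.

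The levels of IRS1 and IRS2 RNA did not follow the isoform labels. On 1 of the 3 IRS1 probe sets the 24 arrays of clones labelled IRS-2 read 7.65 to 8.98 on the log2 scale and the 24 of clones labelled IRS-1 read 5.25 to 6.42, so IRS1 was higher, with no overlap, where the label names IRS-2. The other 2 IRS1 probe sets had medians of 8.06 and 4.56 over the arrays labelled IRS-1 and 8.20 and 4.99 over those labelled IRS-2, with overlapping ranges. IRS2 was not higher in the clones labelled IRS-2 either: its 2 probe sets had medians of 7.05 and 6.89 there and 7.07 and 7.29 in those labelled IRS-1, again overlapping. The sources used here do not give which part of each transcript was introduced or where these probe sets lie on it. A probe set outside the introduced part cannot check which gene was introduced. It would read the cells' own RNA, in cells that the study describes as having no IRS proteins of their own. IRS-1 and IRS-2 are therefore used throughout as the names on the labels, and every direction between isoforms rests on those labels, whereas comparisons within a clone do not.

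The arrays were alike in scale, with array medians of 7.39 to 7.51 and correlations of 0.9944 to 0.998 between arrays of a group. Of luminal epithelial markers, 9 of 10 lay above the median gene (8.30 on the log2 scale), against 0 of 4 immune, 1 of 3 endothelial and 3 of 7 mesenchymal markers, and the mean of the luminal list kept between 12.40 and 12.62 over the 16 groups. The 3′ to 5′ signal of ACTB, a sign of RNA integrity, was lower with IGF-I than in SFM in all 8 clone and time sets (IGF-I minus SFM -0.05 to -0.01 on the log2 scale), and that of GAPDH was lower in 5 sets and higher in 3 (-0.03 to 0.04). In SFM the ACTB group means were 0.19 to 0.25 in clones labelled IRS-1 and 0.11 to 0.16 in those labelled IRS-2, without overlap. Those of GAPDH were -0.12 to -0.04 and -0.17 to -0.10, which overlapped. The part of either in the results was not tested. Of the 38 members, 34 lay above the median gene, so their shares are read against the 9887 genes above it as well as against all genes. A gene is said to have risen or fallen where the adjusted p of limma, fitted to all 48 arrays and adjusted over 54613 probe sets, was below 0.05. Whether the 3 arrays of each group overlap is given as description and not as a test. The share of all genes without overlap was not computed.

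ADM, the vessel-widening peptide, passed the test with IGF-I in each IRS-2 clone at 4 h and in neither IRS-1 clone. On the log2 scale its level in IRS-2 #1 at 4 h was 8.84, 8.92 and 8.94 on the 3 SFM arrays and 9.48, 9.42 and 9.47 with IGF-I. In clone #6 it was 10.81, 11.01 and 11.02 in SFM and 11.45, 11.28 and 11.45 with IGF-I. In both clones every IGF-I array lay above every SFM array. ADM rose by 0.55 in IRS-2 #1 (SE 0.064, 1.47-fold, adjusted p = 4.07e-08) and by 0.45 in clone #6 (SE 0.064, 1.37-fold, adjusted p = 2.47e-06), so neither reached 1.5-fold. In bulk RNA such as this, more cells expressing a gene and more RNA per cell cannot be told apart. In IRS-1 #10 the SFM arrays read 8.30, 8.35 and 8.25 and the IGF-I arrays 8.48, 8.39 and 8.45. The difference of 0.14 (95% interval 0.01 to 0.27) did not pass the test (adjusted p = 0.347), although the arrays did not overlap. In IRS-1 #20 the levels were 10.16, 10.27 and 10.38 in SFM and 10.35, 10.21 and 10.12 with IGF-I, which overlapped (difference -0.05, 95% interval -0.17 to 0.08, adjusted p = 0.795).

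The difference between isoforms was itself tested, as the mean response of the 2 clones labelled IRS-2 less that of the 2 labelled IRS-1. Its sign rests on labels that, by median, none of the IRS1 and IRS2 probe sets above bore out. For ADM at 4 h the difference was 0.46 on the log2 scale (SE 0.064, 95% interval 0.33 to 0.59, adjusted p = 1.43e-05), and ADM was the sole member of 38 to pass, against 0.44% of all genes. It stayed past the threshold without the arrays of letter A, B or C, at 0.43 to 0.49. The arrays of a clone are its replicates here and the clones are not: with 2 clones against 2, an exact permutation over clones cannot give a p below 0.333. By 24 h the ADM responses were -0.16, -0.08, 0.04 and -0.10 in clones #10, #20, #1 and #6, none past the test, and the SFM and IGF-I arrays overlapped in all 4 clones. The isoform difference was then 0.09 (95% interval -0.04 to 0.22, adjusted p = 0.783). The change of the response from 4 h to 24 h passed in both IRS-2 clones, at -0.51 in #1 (adjusted p = 0.000534) and -0.56 in #6 (adjusted p = 9.65e-05), and the latter was lost without the arrays of letter A (-0.38, adjusted p = 0.103).

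**Figure D1:**
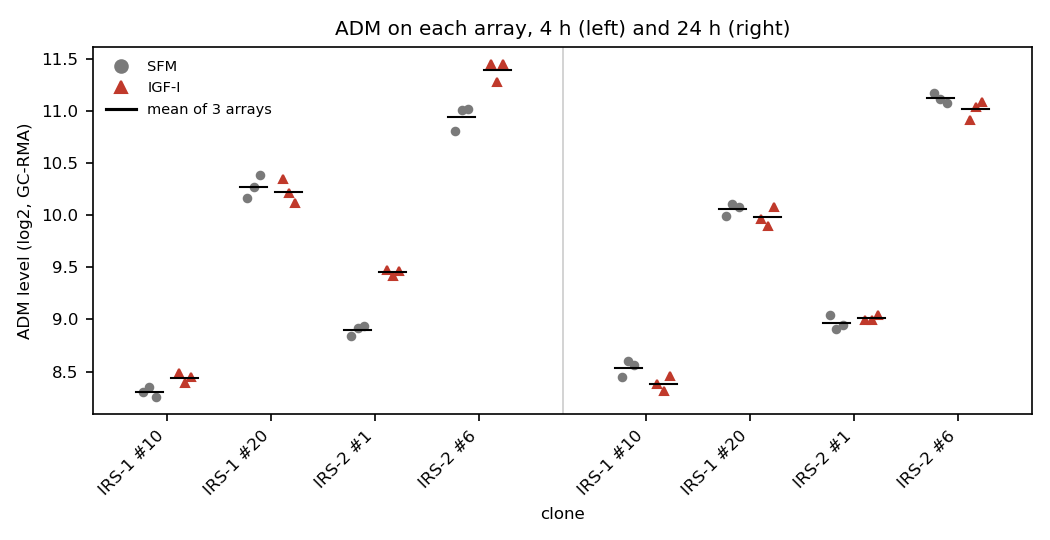
ADM level (log2, GC-RMA) on each of the 48 arrays, by clone on the x axis, with 4 h on the left and 24 h on the right; circles are SFM arrays, triangles IGF-I arrays and bars the mean of 3 arrays. The IGF-I arrays of IRS-2 #1 and #6 stand above their SFM arrays at 4 h, and the clones' own SFM means span 8.30 to 10.94 at that time.

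ADM also differed more between clones than with IGF-I. In SFM at 4 h its mean level was 8.30 ± 0.05 (SD, n = 3) in IRS-1 #10, 8.90 ± 0.05 in clone #1, 10.27 ± 0.11 in clone #20 and 10.94 ± 0.12 in clone #6. The order was the same at 24 h, with means of 8.54, 8.97, 10.06 and 11.12, and no 2 clones overlapped at either time. All 8 pairs of an IRS-2 with an IRS-1 clone passed the test, but IRS-2 #1 lay below clone #20 (difference -1.37 at 4 h and -1.09 at 24 h), while the other 6 pairs had the IRS-2 clone higher, by 0.43 to 2.64. Within an isoform the second clone was higher by 1.97 at 4 h and 1.52 at 24 h for IRS-1 (#20 over #10) and by 2.04 and 2.15 for IRS-2 (#6 over #1). Each isoform thus held 1 clone with a lower and 1 with a higher level of ADM.

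Over the 38 members, 2 to 7 passed the test with IGF-I per clone at 4 h and 1 to 11 at 24 h, with 1 change of over 1.5-fold. At 4 h there were 1 rise and 1 fall in IRS-1 #10 (1.18% and 1.47% of all genes), while 2 rose and 3 fell in clone #20 (1.17% and 3.54%), 5 rose and 2 fell in clone #1 (1.53% and 0.794%), and 3 rose and 3 fell in clone #6 (1.89% and 1.58%). Of genes above the median gene, 2.17% rose and 2.47% fell in IRS-1 #10 (2.63% and 2.63% of the members), 1.62% and 6.32% in clone #20 (5.26% and 7.89%), 2.73% and 1.11% in clone #1 (13.2% and 5.26%), and 3.21% and 2.47% in clone #6 (7.89% and 7.89%). None of the 38 changed by 1.5-fold or more at 4 h, a size passed by 0.086% of all genes in IRS-1 #10, 0.086% in clone #20, 0.142% in clone #1 and 0.303% in clone #6. The members' median response lay between -0.04 and -0.01 in the 4 clones, beside a median of -0.01 for all genes in each. The calls over the 4 clones at 4 h, 20 in all, were 13, 9 and 11 without the arrays of letter A, B and C.

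At 24 h, 4 members rose and 5 fell in IRS-1 #10 (4.39% and 6.65% of all genes), 11 rose and 0 fell in clone #20 (7.46% and 2.95%), 3 rose and 0 fell in clone #1 (2.93% and 1.62%), and 1 rose and 0 fell in clone #6 (1.42% and 4.34%). At an unadjusted p below 0.05, 15, 15, 12 and 12 members differed in either direction, beside 23.8%, 21.5%, 15.7% and 19% of all genes. Of genes above the median gene, 7.33% rose and 11.6% fell in clone #10 (10.5% and 13.2% of the members), 13.5% and 5.26% in clone #20 (28.9% and 0%), 5.56% and 2.63% in clone #1 (7.89% and 0%), and 2.46% and 7.5% in clone #6 (2.63% and 0%). The 11 rises of IRS-1 #20 were 4, 4 and 8 without the arrays of letter A, B and C, and the calls over all 4 clones, 24 in all, were 15, 9 and 15. One member, VEGFA in IRS-1 #20, changed by over 1.5-fold at 24 h, a size reached by 0.298% of all genes in clone #10, 0.314% in clone #20, 0.0354% in clone #1 and 0.0657% in clone #6. The members' medians were -0.03, 0.06, 0.06 and 0.01 in clones #10, #20, #1 and #6, beside 0.01, 0.01, -0.01 and 0.00 for all genes.

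**Figure D2:**
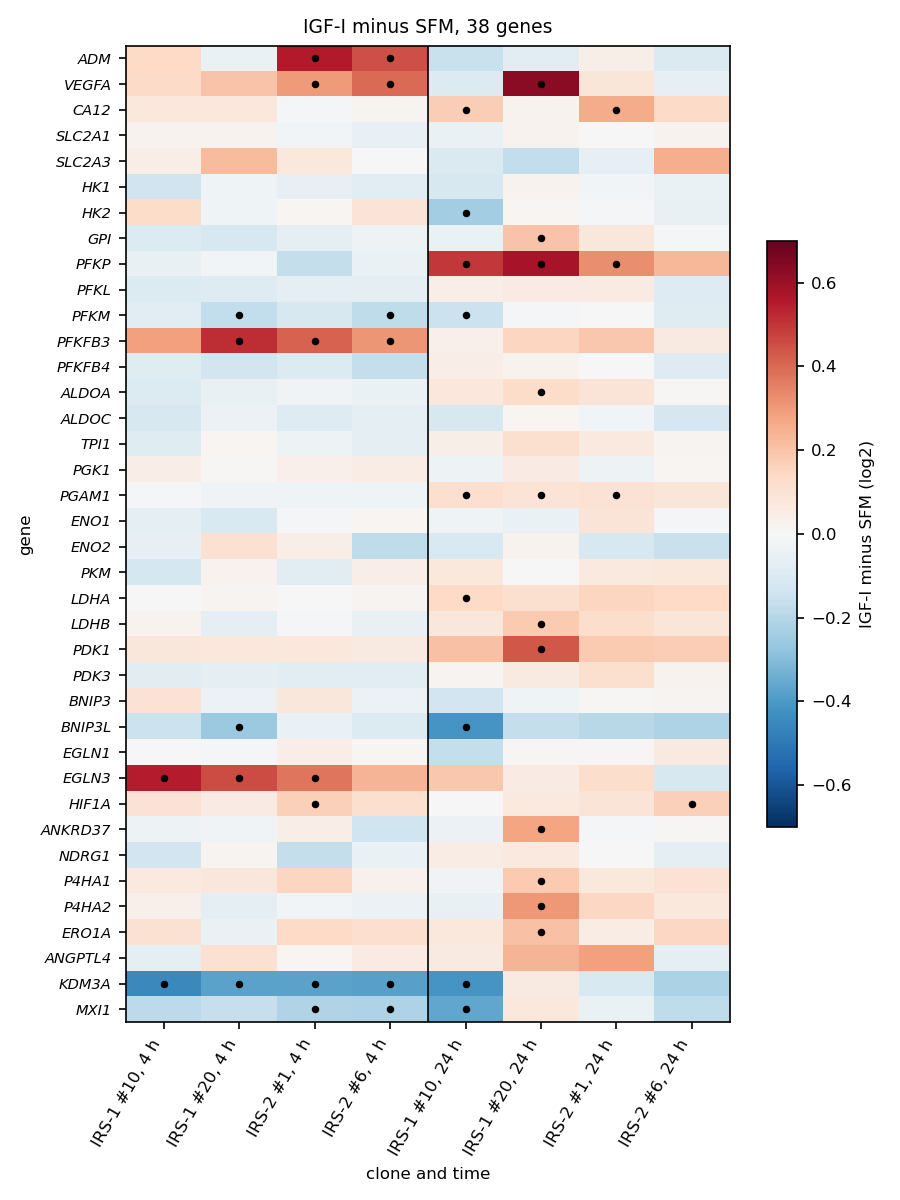
Response to IGF-I (IGF-I minus SFM, log2, colour) of the 38 measured members (rows, ordered by role) in each clone at 4 h (left 4 columns) and 24 h (right 4 columns); a dot marks an adjusted p below 0.05. The 4 h dots sit mainly in the rows of ADM, VEGFA, PFKFB3, EGLN3, KDM3A and MXI1, and the IRS-1 #20 column at 24 h holds 11 dots, all of rises.

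Among ligands, VEGFA, the main growth factor of vessel endothelium, rose in clones #1 and #6 at 4 h. In IRS-2 #1 the SFM arrays read 9.11, 9.10 and 9.06 and the IGF-I arrays 9.32, 9.48 and 9.36, a rise of 0.30 (SE 0.070, adjusted p = 0.0115). In IRS-2 #6 they read 9.02, 9.26 and 9.04 in SFM and 9.56, 9.41 and 9.52 with IGF-I, a rise of 0.39 (adjusted p = 0.000165). Neither pair of groups overlapped, but the call in #1 was lost whichever letter was left out (0.26 to 0.34, adjusted p = 0.0852 to 0.129), and that in #6 without letter A (0.32, adjusted p = 0.0878). In IRS-1 #10 and #20 the 4 h values were 0.13 and 0.20 (adjusted p = 0.419 and 0.106), with overlapping arrays, and the isoform difference of 0.18 did not pass (95% interval 0.04 to 0.32, adjusted p = 0.609). The other 3 VEGFA probe sets gave 0.05 to 0.15 in IRS-2 #1, none past the test, and 0.11, 0.25 and 0.46 in clone #6, the last 2 of them past it.

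At 24 h VEGFA rose in IRS-1 #20 alone. Its SFM arrays read 9.77, 9.72 and 9.75 and its IGF-I arrays 10.36, 10.32 and 10.46, a rise of 0.63 (SE 0.070, 1.55-fold, adjusted p = 3.65e-09). The other 3 VEGFA probe sets rose there as well, by 0.31, 0.39 and 0.44. In IRS-1 #10 the SFM arrays read 10.09, 10.04 and 10.19 and the IGF-I arrays 10.02, 10.00 and 10.01, a difference of -0.10 (adjusted p = 0.483). The responses of the 2 IRS-1 clones differed by 0.73 (#20 minus #10, SE 0.098, adjusted p = 6.37e-06), and by 0.23 on the second brightest probe set, which did not pass (adjusted p = 0.180). In IRS-2 #1 and #6 the 24 h values were 0.08 and -0.06, and the isoform difference was -0.25 (95% interval -0.39 to -0.11, adjusted p = 0.0953).

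Of the glycolytic genes, PFKFB3, whose product makes fructose 2,6-bisphosphate and so drives phosphofructokinase, was the one that rose at 4 h. The SFM arrays of IRS-1 #20 read 8.94, 8.90 and 9.24 and its IGF-I arrays 9.52, 9.63 and 9.47, a rise of 0.51 (SE 0.084, 1.43-fold, adjusted p = 8.12e-05). IRS-2 #1 went from 9.29, 9.47 and 9.26 to 9.80, 9.76 and 9.69, a rise of 0.41 (adjusted p = 0.00244). IRS-2 #6 went from 9.37, 9.56 and 9.49 to 9.84, 9.73 and 9.78, a rise of 0.31 (adjusted p = 0.0316). In IRS-1 #10 the arrays read 8.51, 8.34 and 8.53 in SFM and 8.77, 8.79 and 8.69 with IGF-I, a difference of 0.29 that missed the threshold (adjusted p = 0.0615). The groups did not overlap in any of the 4 clones, and the isoform difference was -0.04 (95% interval -0.21 to 0.13). The call was lost without letter B in IRS-1 #20 (0.41, adjusted p = 0.0667), without letter A in clone #1 (0.36, adjusted p = 0.138) and whichever letter was left out in clone #6 (0.23 to 0.38). By 24 h the PFKFB3 responses were 0.04 to 0.19, none past the test. Its isozyme PFKFB4, the other hypoxia-responsive form, did not pass in any clone at either time.

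EGLN3, a prolyl hydroxylase that HIF itself induces, rose at 4 h in 3 clones. In IRS-1 #10 its SFM arrays read 7.88, 7.47 and 7.69 and its IGF-I arrays 8.24, 8.16 and 8.29, a rise of 0.55 (SE 0.083, 1.46-fold, adjusted p = 3.21e-05). In IRS-1 #20 they read 7.97, 7.98 and 7.99, then 8.51, 8.59 and 8.22, a rise of 0.46 (adjusted p = 0.000443), and in clone #1 8.40, 8.49 and 8.41, then 8.86, 8.78 and 8.79, a rise of 0.38 (adjusted p = 0.00605). In none of these 3 clones did the groups overlap. IRS-2 #6, the clone with the highest EGLN3 in SFM, read 8.93, 8.97 and 8.77 and then 9.19, 8.96 and 9.23, which overlapped (difference 0.24, 95% interval 0.07 to 0.40, adjusted p = 0.155). The calls in both IRS-1 clones held whichever letter was left out, and that in IRS-2 #1 was lost without letter A (0.34, adjusted p = 0.232) or C (0.37, adjusted p = 0.0807). The isoform difference was -0.20 (95% interval -0.37 to -0.03, adjusted p = 0.669). A second EGLN3 probe set gave 0.25, 0.42, 0.46 and 0.32 in clones #10, #20, #1 and #6, past the test in clone #20 and clone #1. At 24 h the EGLN3 responses were -0.11 to 0.19 and none passed, while EGLN1, another prolyl hydroxylase of the family, did not pass in any clone at either time.

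HIF1A itself, the alpha subunit, rose in IRS-2 #1 at 4 h (0.16, SE 0.042, adjusted p = 0.0270) and in clone #6 at 24 h (0.17, adjusted p = 0.0138). Both calls are at messenger level and both were lost whichever letter was left out (0.15 to 0.17 in IRS-2 #1 and 0.14 to 0.19 in clone #6).

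KDM3A, a histone H3 lysine 9 demethylase that HIF induces, fell at 4 h in all 4 clones, the one member to pass in every clone. The SFM arrays of IRS-1 #10 read 10.26, 10.20 and 10.28 and its IGF-I arrays 9.81, 9.77 and 9.82, and KDM3A fell by 0.45 (SE 0.071, adjusted p = 6.81e-05). In IRS-1 #20 the levels were 9.57, 9.74 and 9.84, then 9.53, 9.29 and 9.20, and KDM3A fell by 0.37 (adjusted p = 0.000872). In IRS-2 #1 they were 9.87, 9.93 and 9.87, then 9.50, 9.56 and 9.50, and KDM3A fell by 0.37 (adjusted p = 0.000908). In IRS-2 #6 they were 9.82, 9.99 and 9.86, then 9.60, 9.46 and 9.47, and KDM3A fell by 0.38 (adjusted p = 0.000418). No clone's SFM and IGF-I arrays overlapped. The call held whichever letter was left out in IRS-1 #10, and was lost without letter B in clone #1 (-0.37, adjusted p = 0.0635) and clone #6 (-0.30, adjusted p = 0.146) and without letter B or C in clone #20 (-0.34 and -0.24). The only other KDM3A probe set lay at 4.44 on the log2 scale, far below the median gene, and passed in no clone at 4 h (-0.09 to 0.15).

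At 24 h KDM3A fell in IRS-1 #10 alone, from 10.31, 10.36 and 10.45 to 10.05, 9.95 and 9.89 (by 0.41, adjusted p = 4.60e-05). In IRS-1 #20 it read 9.23, 9.33 and 9.33 in SFM and 9.17, 9.40 and 9.51 with IGF-I, a difference of 0.06, and the 2 IRS-1 clones differed by 0.48 (#20 minus #10, SE 0.10, adjusted p = 0.00618). That difference was lost without letter B (0.48, adjusted p = 0.220) or C (0.34, adjusted p = 0.369). In IRS-2 #1 and #6 the 24 h differences were -0.11 and -0.22 (adjusted p = 0.607 and 0.0669). KDM3A also fell in SFM alone from 4 h to 24 h in clones #20, #1 and #6, by 0.42, 0.38 and 0.31. Its SFM change of 0.13 in IRS-1 #10 did not pass. The 24 h values outside IRS-1 #10 are thus against a lowered control, and the part of this in the clone difference was not tested.

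MXI1, a MAX partner that opposes MYC, had the sign of KDM3A in each clone at both times, with smaller differences at 4 h. At 4 h it fell in IRS-2 #1, from 9.55, 9.44 and 9.48 to 9.29, 9.32 and 9.24 (by 0.21, SE 0.055, adjusted p = 0.0314), and in clone #6, from 9.74, 9.80 and 9.74 to 9.63, 9.55 and 9.47 (by 0.21, adjusted p = 0.0189). The 4 h differences in IRS-1 #10 and #20 were -0.19 and -0.16 and missed the threshold (adjusted p = 0.0652 and 0.1003), although the groups did not overlap in any clone. The IRS-2 #1 call was lost whichever letter was left out (-0.25 to -0.18), and the clone #6 call without letter B or C (-0.20 and -0.18). At 24 h MXI1 fell in IRS-1 #10, from 9.74, 9.73 and 9.77 to 9.45, 9.34 and 9.36 (by 0.37, adjusted p = 3.64e-06). In IRS-1 #20 it read 9.02, 9.09 and 9.10, then 9.08, 9.10 and 9.25, a difference of 0.07. The clone difference was 0.44 (#20 minus #10, SE 0.077, adjusted p = 0.000677), lost without letter B (0.46, adjusted p = 0.0530) or C (0.38, adjusted p = 0.151). From 4 h to 24 h in SFM alone MXI1 fell by 0.38 in clone #20, while its change of -0.03 in clone #10 did not pass. The 24 h value of clone #20 is thus against a lowered control, and the part of this in the clone difference was not tested. BNIP3L, a mitophagy receptor, fell by 0.26 in IRS-1 #20 at 4 h (adjusted p = 0.0313), a call lost without letter B (-0.30) or C (-0.10), and by 0.41 in clone #10 at 24 h (adjusted p = 5.10e-05). Its paralogue BNIP3 did not pass in any clone.

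At 24 h the largest change among glycolytic genes was in PFKP, the platelet form of phosphofructokinase, the committed step of the pathway. In IRS-1 #10 the SFM arrays read 9.20, 9.39 and 9.26 and the IGF-I arrays 9.87, 9.73 and 9.73, a rise of 0.49 (SE 0.076, 1.41-fold, adjusted p = 6.70e-06). In IRS-1 #20 they read 9.17, 9.37 and 9.42, then 9.82, 9.91 and 9.97, a rise of 0.58 (1.49-fold, adjusted p = 2.62e-07). In IRS-2 #1 they read 9.22, 9.17 and 9.18, then 9.45, 9.52 and 9.58, a rise of 0.33 (adjusted p = 0.00704). No arrays overlapped in these 3 clones. IRS-2 #6 read 9.68, 9.87 and 9.71 in SFM and 10.02, 9.89 and 10.04 with IGF-I, a difference of 0.23 that did not pass (adjusted p = 0.0812). The IRS-2 #1 call was lost without letter B (0.31, adjusted p = 0.0842) or C (0.29, adjusted p = 0.230). The isoform difference was -0.26 (95% interval -0.41 to -0.10, adjusted p = 0.155). A second and dimmer PFKP probe set went the other way at 24 h, at -0.08, -0.18 and -0.19 in clones #10, #20 and #1, none past the test. At 4 h PFKP differed by -0.17 to -0.02, none past the test. In SFM alone PFKP changed from 4 h to 24 h by -0.08, -0.40 and -0.26 in clones #10, #20 and #1, past the test in clones #20 and #1. The 24 h rises in those clones are thus against a lowered control.

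The other 2 phosphofructokinases did not move with PFKP. PFKM, the muscle form, fell in IRS-1 #20 (by 0.17) and clone #6 (by 0.18) at 4 h and in clone #10 at 24 h (by 0.15), each call lost without letter B or C, and PFKL, the liver form, did not pass in any clone.

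Further along the pathway the 24 h rises were small. PGAM1, phosphoglycerate mutase, rose by 0.12 in IRS-1 #10 (SE 0.028, adjusted p = 0.00304), by 0.10 in clone #20 and by 0.10 in clone #1. The IRS-1 #20 clone alone showed a rise of GPI, glucose phosphate isomerase (0.20, adjusted p = 0.0189), of ALDOA, aldolase A (0.13, adjusted p = 0.0335), of LDHB, the heart form of lactate dehydrogenase (0.18, adjusted p = 0.00118), and of PDK1, the kinase that shuts off pyruvate dehydrogenase (0.43, SE 0.097, adjusted p = 0.00193). In SFM alone these genes fell in clone #20 from 4 h to 24 h: GPI by 0.46, ALDOA by 0.14, LDHB by 0.25 and PDK1 by 0.30. These rises are thus against a lowered control. With IGF-I at 24 h GPI (10.97 to 11.01) and LDHB (12.34 to 12.38) stayed below their 4 h SFM arrays (11.23 to 11.28 and 12.39 to 12.46). ALDOA and PDK1 overlapped theirs, and the SFM change of PGAM1 did not pass. LDHA, the muscle form, rose in IRS-1 #10 (0.14, adjusted p = 0.0433), where HK2, the inducible hexokinase, fell by 0.24 (adjusted p = 0.0438), and in both of these the SFM and IGF-I arrays overlapped. Without letter A the LDHA difference was 0.02, and it missed the threshold without B too (0.18). The PGAM1 calls were lost without letter A or C in IRS-1 #10 (0.10 and 0.11), without A or B in clone #20 (0.06 and 0.11) and whichever letter was left out in clone #1 (0.09 to 0.12). PDK1 without letter A was 0.38 (adjusted p = 0.0703), LDHB without letter B was 0.16, and ALDOA and GPI were each lost whichever letter was left out. The HK2 difference was -0.15 without letter B and -0.20 without C, neither past the test, and its second probe set gave 0.17. TPI1, PGK1, ENO1, ENO2, PKM, ALDOC, HK1 and PDK3 did not pass in any clone at either time.

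For glucose entry and acid handling, SLC2A1 and SLC2A3, the facilitative transporters GLUT1 and GLUT3, did not pass in any clone. CA12, a carbonic anhydrase on the cell surface, rose at 24 h in IRS-1 #10 (0.17, adjusted p = 0.0244) and clone #1 (0.26, SE 0.051, adjusted p = 0.000787). The CA12 arrays of IRS-2 #1 went from 10.67, 10.60 and 10.62 to 10.83, 10.95 and 10.91. Those of IRS-1 #10 went from 9.99, 9.87 and 9.89 to 10.09, 10.04 and 10.13, and neither pair overlapped. In SFM alone CA12 fell from 4 h to 24 h by 0.24 in IRS-1 #10 and by 0.19 in clone #1. Both rises are thus against a lowered control, and the 24 h IGF-I arrays overlapped the 4 h SFM arrays in both clones. The call in IRS-2 #1 was lost without letter B (0.22, adjusted p = 0.160) and that in clone #10 without letter B (0.17) or C (0.14).

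Of the other HIF targets, 4 rose in IRS-1 #20 at 24 h. They were P4HA1 and P4HA2, the catalytic subunits of collagen prolyl hydroxylase (0.18 and 0.30), ERO1A, the oxidase that recharges disulphide formation in the endoplasmic reticulum (0.21, adjusted p = 0.00263), and ANKRD37, an ankyrin repeat protein (0.28, adjusted p = 0.0156). P4HA1 was lost whichever letter was left out (0.16 to 0.20), ANKRD37 without A (0.27) or B (0.25), P4HA2 without B (0.28) and ERO1A without A (0.17). The second brightest probe sets of P4HA1 and ERO1A gave -0.04 and -0.01. In SFM alone ERO1A fell in clone #20 from 4 h to 24 h, by 0.30, while the SFM changes of P4HA1, P4HA2 and ANKRD37 there did not pass. NDRG1 and ANGPTL4 did not pass in any clone at either time.

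**Figure D3:**
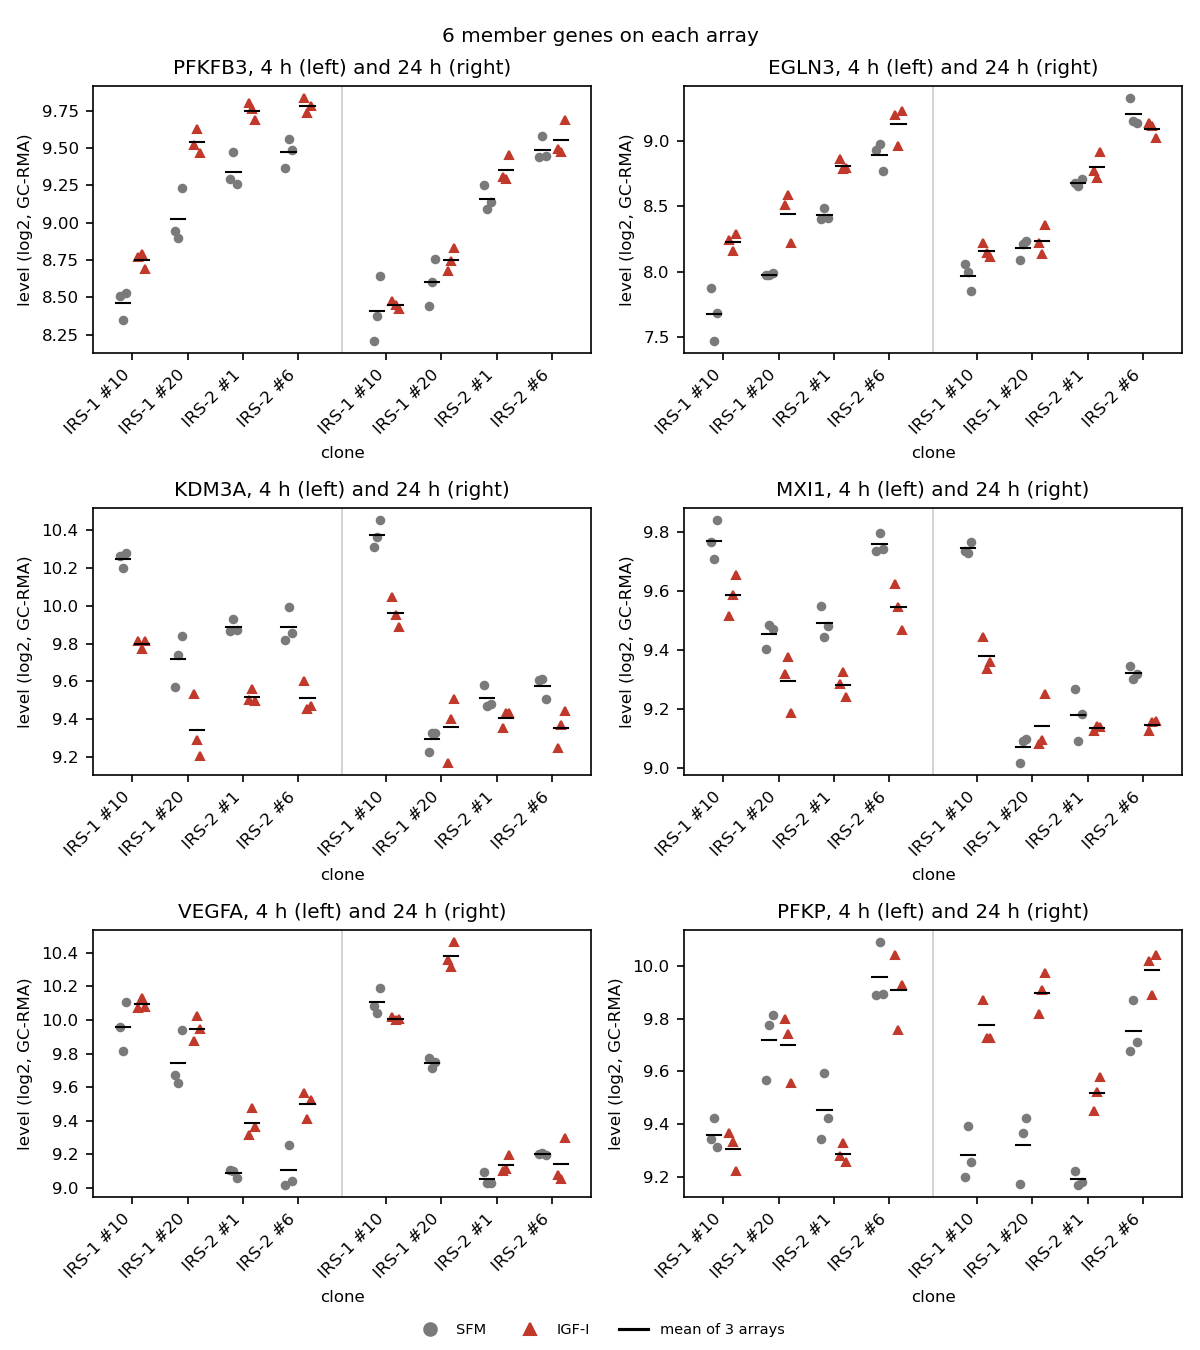
Level (log2, GC-RMA) of PFKFB3, EGLN3, KDM3A, MXI1, VEGFA and PFKP on each array, by clone on the x axis, with 4 h on the left and 24 h on the right of each panel; circles are SFM arrays, triangles IGF-I arrays and bars the mean of 3. PFKFB3 and KDM3A part the treatments without overlap in all 4 clones at 4 h, VEGFA in IRS-1 #20 and PFKP in all 4 clones at 24 h.

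Tests of whether responses differed between clones or isoforms gave few members beyond those named. At 24 h 0 of 38 members differed between isoforms in limma, against 0.769% of all genes, with 5 members and 9.98% of all genes at an unadjusted p below 0.05. Between the IRS-1 clones 0 members differed at 4 h (0.0455% of all genes; 2 members and 8.80% of all genes at an unadjusted p below 0.05), and VEGFA, KDM3A and MXI1 differed at 24 h (1.55%). Between the IRS-2 clones 0 members differed at 4 h (0% of all genes; 0 members and 3.72% of all genes at an unadjusted p below 0.05) or at 24 h (0.00506%; 2 members and 7.52% at an unadjusted p below 0.05). Of the 11 members that rose in IRS-1 #20 at 24 h, VEGFA is the one whose response was shown to differ from that in clone #10.

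The change of the response from 4 h to 24 h was tested in each clone. It passed for 1 member in IRS-1 #10 (3.89% of all genes), for 10 in clone #20 (7.26%), for 3 in clone #1 (1.57%) and for 2 in clone #6 (1.57%). PFKP turned upwards in 3 clones, by 0.54 in IRS-1 #10 (SE 0.11, adjusted p = 0.00126), 0.60 in clone #20 (adjusted p = 0.000216) and 0.49 in clone #1 (adjusted p = 0.00752), each lost without letter C (0.54, 0.50 and 0.46) and that in clone #1 also without letter B (0.43). In IRS-1 #20 the response also moved upwards for VEGFA (0.43), KDM3A (0.44), P4HA2 (0.36), GPI (0.31), ERO1A (0.25), LDHB (0.25) and ALDOA (0.18), and downwards for EGLN3 (-0.40) and SLC2A3 (-0.39). In IRS-2 #1 it moved upwards for CA12 (0.28), which was lost without letter B (0.21) or C (0.26), and in clone #6 downwards for VEGFA (-0.45), which was lost without letter A (-0.35). KDM3A, GPI, ERO1A, LDHB and ALDOA fell in SFM alone in clone #20 over the same time, by 0.42, 0.46, 0.30, 0.25 and 0.14. PFKP fell in SFM in clones #20 and #1, by 0.40 and 0.26, and CA12 in clone #1, by 0.19. SLC2A3, at 6.76 below the median gene, rose in SFM in clone #20, by 0.25. These time differences thus come with a control that itself moved, and its part was not tested. In IRS-1 #20 all 10 calls were lost without at least 1 letter.

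In SFM, with no IGF-I, 11 members separated the labelled isoforms in all 4 pairs of an IRS-2 with an IRS-1 clone at both times. Which side is called IRS-2 rests here too on labels that, by median, none of the IRS1 and IRS2 probe sets bore out. Higher in the clones labelled IRS-2 were 9 of the 38 (8.41% of all genes and 13.9% of those above the median gene), and lower were 2 (2.97% and 4.08%). The higher group held EGLN3 (0.46 to 1.23 over the 8 pairs), CA12 (0.61 to 1.11), PFKFB3 (0.31 to 1.08), PDK1 (0.44 to 0.85), PFKL (0.32 to 0.48), HK1 (0.32 to 0.45), PFKFB4 (0.20 to 0.37), PDK3 (0.19 to 0.36) and PGAM1 (0.08 to 0.31). On their brightest probe sets both members of the PFKFB and PDK pairs on the list stood higher in all 8 pairs, as did HK1 and PFKL. The other PDK1 probe sets were higher in 8 pairs and lower in 0, and lower in 3 and higher in 0. Those of PDK3 ran from higher in 8 pairs and lower in 0 to lower in 5 and higher in 0. HK2 was higher in 4 pairs and lower in 1, PFKM higher in 6 and lower in 0, and PFKP higher in 4 and lower in 1. Other HK2 probe sets were higher in 6 and 4 pairs and lower in 0, and the other PFKP probe set was lower in 7. Whether isozymes differed from each other was not tested. The lower group held VEGFA (-1.05 to -0.54) and BNIP3 (-0.53 to -0.19). The 8 pairs reuse the same 24 SFM arrays and 4 clones, and the clones of an isoform are 2. The ACTB signal of RNA integrity in SFM also parted the labelled isoforms, as given above, and its part in these differences was not tested.

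CA12 and EGLN3 show how the groups lie. The SFM arrays of CA12 at 4 h read 10.10, 10.15 and 10.21 in IRS-1 #10 and 10.20, 10.22 and 10.22 in clone #20, against 10.73, 10.88 and 10.86 in clone #1 and 11.05, 11.09 and 11.20 in clone #6. At 24 h they read 9.79 to 10.01 in the IRS-1 clones and 10.60 to 11.03 in the IRS-2 clones, so no array labelled IRS-1 reached one labelled IRS-2 at either time. EGLN3 read 7.47 to 7.99 in the IRS-1 clones at 4 h and 8.40 to 8.97 in the IRS-2 clones. VEGFA ran the other way, with 9.62 to 10.11 in IRS-1 and 9.02 to 9.26 in IRS-2 at 4 h. On their second probe sets PFKFB4 and PDK3 did not keep this pattern: 6 of the 8 PFKFB4 pairs and 3 of the 8 PDK3 pairs turned negative.

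Many SFM differences lay between clones of 1 isoform. Between IRS-1 #20 and #10, 27 of 38 members differed at 4 h (34.1% of all genes) and 21 at 24 h (36.6%), and between clone #6 and #1, 13 at 4 h (21.3%) and 12 at 24 h (15.3%). ALDOC, the brain form of aldolase, had the largest such difference after ADM at 4 h: it read 8.95, 8.96 and 8.93 in IRS-1 #10, 10.03, 10.01 and 10.04 in clone #20, 10.08, 10.15 and 10.07 in clone #1 and 10.12, 10.13 and 10.08 in clone #6. IRS-1 #10 stood below the other 3 clones, by 1.08 against clone #20 (SE 0.084, adjusted p = 5.91e-15). ERO1A likewise was higher in IRS-1 #20 than in #10, by 0.94 at 4 h and 0.54 at 24 h. KDM3A was lower in IRS-1 #20 than in #10 (#20 minus #10, -0.53 at 4 h and -1.08 at 24 h). LDHA and LDHB parted in opposite directions between the IRS-1 clones at 4 h, LDHA by 0.51 and LDHB by -0.52 (#20 minus #10).

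Levels also drifted between 4 h and 24 h in SFM. In IRS-1 #10, 2 members rose and 1 fell (2.21% and 0.374% of all genes), in clone #20, 2 rose and 16 fell (9.18% and 16.6%), in clone #1, 3 rose and 9 fell (2.90% and 4.74%), and in clone #6, 4 rose and 2 fell (10.6% and 5.54%). Of genes above the median gene, 4.25% rose and 0.455% fell in clone #10 (5.26% and 2.63% of the members), 7.31% and 29.7% in clone #20 (5.26% and 42.1%), 5.22% and 7.98% in clone #1 (7.89% and 23.7%), and 19.2% and 4.51% in clone #6 (10.5% and 5.26%). Over the 4 clones, 39 changes were called, and 32, 18 and 19 without the arrays of letter A, B and C. MXI1 and KDM3A fell in the same 3 clones and not in IRS-1 #10. For MXI1 the falls were 0.38 in IRS-1 #20, 0.31 in clone #1 and 0.44 in clone #6 (adjusted p = 1.16e-06, 0.000125 and 6.68e-08), and for KDM3A they were 0.42, 0.38 and 0.31 (adjusted p = 2.45e-05, 0.000324 and 0.00187). The MXI1 calls held whichever letter was left out, and those of KDM3A in IRS-2 #1 and #6 were lost without letter B (-0.34 and -0.28). These comparisons use the SFM arrays that the IGF-I comparisons also use, so the 2 sets of values are not independent. Whether the IRS-1 #10 drift differs from that of the other clones was not tested.

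ADM itself moved over time in SFM in opposite directions in the IRS-1 clones. In #10 it went from 8.30, 8.35 and 8.25 to 8.44, 8.60 and 8.57, a rise of 0.24 (adjusted p = 0.0414) that was lost without letter B (0.23) or C (0.20). In clone #20 it went from 10.16, 10.27 and 10.38 to 9.997, 10.11 and 10.08, a fall of 0.21 (adjusted p = 0.0147) that was lost without letter B (-0.24) or C (-0.17) and after quantile normalization (-0.10, adjusted p = 0.188). In clones #1 and #6 the ADM change was 0.07 and 0.18 and did not pass (adjusted p = 0.735 and 0.0584).

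GPI, which turns glucose 6-phosphate into fructose 6-phosphate, went from 11.23, 11.28 and 11.24 to 10.75, 10.76 and 10.86 in IRS-1 #20, a fall of 0.46 (SE 0.056, adjusted p = 5.14e-08), and from 11.29, 11.42 and 11.30 to 11.16, 11.09 and 11.02 in IRS-2 #1, a fall of 0.25. PFKFB3 fell by 0.42 and PFKP by 0.40 in IRS-1 #20, with PFKM (by 0.25), ALDOC (by 0.30), LDHB (by 0.25), TPI1 (by 0.14) and ALDOA (by 0.14). CA12 fell in 3 clones, by 0.24 in IRS-1 #10, 0.33 in clone #20 and 0.19 in clone #1. The rises were fewer: ANGPTL4, a lipoprotein lipase inhibitor, went from 7.998, 8.12 and 8.07 to 8.52, 8.61 and 8.44 in IRS-2 #6 (0.46, adjusted p = 0.000400), EGLN3 rose there by 0.31, PKM by 0.24 there and 0.19 in clone #1, and ENO2 by 0.31 in clone #20. Of these changes, those of GPI, PFKFB3, PFKP, PFKM, LDHB and CA12 in IRS-1 #20 and of ANGPTL4 in clone #6 held whichever letter was left out, and each of the others was lost without at least 1.

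**Figure D4:**
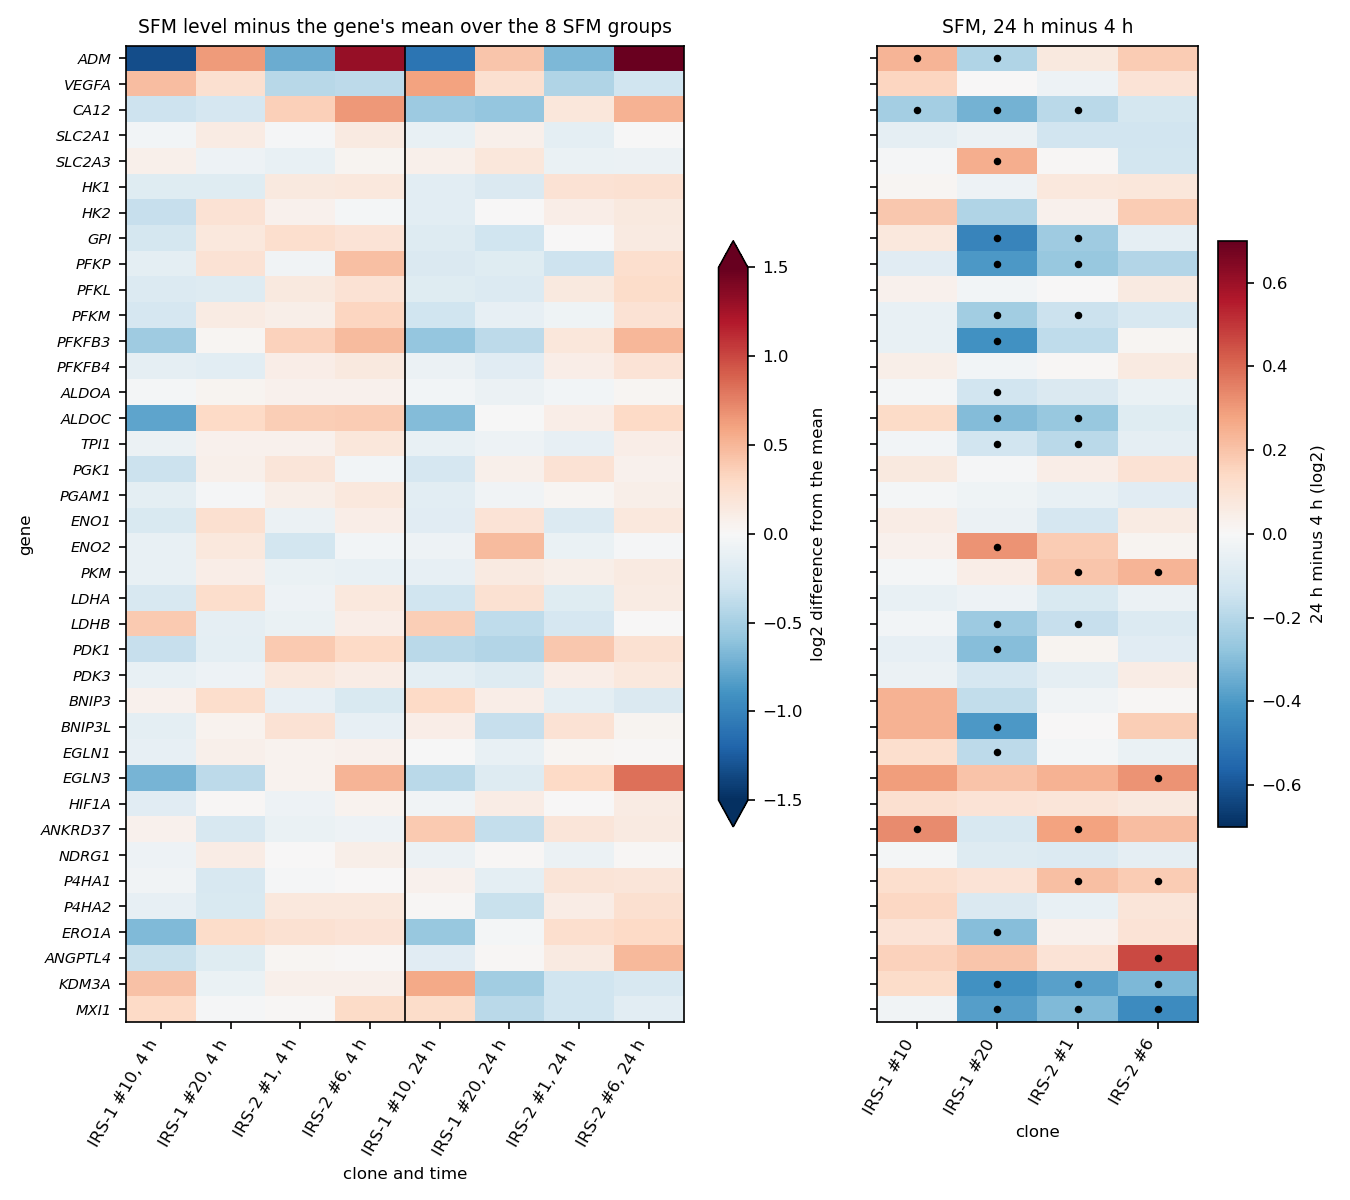
Left, SFM level of each member minus its own mean over the 8 SFM groups (log2, colour capped at 1.5) by clone at 4 h and 24 h; right, the change in SFM from 4 h to 24 h (log2) by clone, with a dot for an adjusted p below 0.05. ADM spans the widest range over clones, CA12, PFKFB3, PDK1 and EGLN3 are higher in both clones labelled IRS-2, VEGFA is lower, and the IRS-1 #20 column on the right holds 18 dots.

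Genes of the same pathways outside the list were read by the same test. Of 11 other HIF regulators, ELOC, a subunit of the ligase that destroys HIF alpha, rose in IRS-1 #10 at 4 h (0.23), and at 24 h EPAS1, the second HIF alpha subunit, fell in clone #10 (by 0.39) and HIF1AN, which inhibits HIF activity, fell in clone #10 (by 0.19) and #20 (by 0.20). No other HIF regulator passed at either time. Of 5 genes for the adrenomedullin receptor and its second ligand (CALCRL, RAMP1, RAMP2, RAMP3 and ADM2), ADM2 alone passed, with a rise of 0.21 in IRS-1 #10 at 24 h. Beside both lists, 1.17% to 1.89% of all genes rose and 0.794% to 3.54% fell per clone at 4 h. At 24 h 1.42% to 7.46% rose and 1.62% to 6.65% fell.

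Of 26 measured further hypoxia targets, 1 was raised and 2 lowered by the test in clone #10 after 4 h, 2 and 3 in clone #20, 1 and 0 in clone #1, and 3 and 1 in clone #6, beside all-gene shares of 1.18% and 1.47%, 1.17% and 3.54%, 1.53% and 0.794%, and 1.89% and 1.58%. JMJD6, a dioxygenase, rose at 4 h in all 4 clones, by 0.27, 0.22, 0.42 and 0.38 in clones #10, #20, #1 and #6. At 24 h 2 rose and 6 fell, 4 and 2, 2 and 2, and 1 and 3 in the same clone order, beside 4.39% and 6.65%, 7.46% and 2.95%, 2.93% and 1.62%, and 1.42% and 4.34% of all genes. CITED2, an inhibitor of HIF that HIF induces, fell in all 4 clones at 24 h (by 0.33, 0.46, 0.41 and 0.33), and PLOD2, a collagen lysyl hydroxylase, rose in all 4 (0.32, 0.30, 0.23 and 0.23). From 4 h to 24 h in SFM alone CITED2 rose in clones #1 and #6, by 0.23 and 0.22, and fell in clone #20, by 0.22. Its 24 h falls in clones #1 and #6 are thus against a raised control. STC2, a secreted glycoprotein, rose at 24 h by 0.58 in IRS-1 #10 and by 1.22 in clone #20, and its response differed between isoforms by -0.86 (IRS-2 minus IRS-1, adjusted p = 4.29e-12). At 4 h STC2 rose in clones #20 and #6, by 0.38 and 0.34. Its SFM level was higher in the clones labelled IRS-2 in all 4 pairs at both times, and fell in clone #6 from 4 h to 24 h, by 0.40. DDIT4, an mTOR inhibitor, differed between isoforms by -0.28 at 24 h, but it fell by 0.25 in IRS-1 #10 and rose by 0.49 in clone #20. DDIT4 also fell in SFM alone from 4 h to 24 h in clones #20 and #1, by 0.41 and 0.42. Its rise in clone #20 is thus against a lowered control. BHLHE41, a transcriptional repressor, differed the other way at 4 h, by 0.34 (adjusted p = 0.0412), and its response passed in no single clone.

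Of 17 other glycolysis and glucose transport genes, TIGAR, a fructose bisphosphatase that slows glycolysis, rose at 4 h in all 4 clones, by 0.41, 0.37, 0.45 and 0.38. Besides TIGAR 0 to 1 others passed in any clone at that time, against the 4 h all-gene shares given for the hypoxia targets. At 24 h there were 1 rise and 2 falls in clone #10, 5 and 1 in clone #20, 0 and 0 in clone #1, and 0 and 1 in clone #6, beside the same all-gene shares as for the hypoxia targets at 24 h. Of 13 genes of pyruvate use, PDK4, a pyruvate dehydrogenase kinase known to be lowered by insulin, fell at 4 h in all 4 clones, by 0.59, 0.50, 0.65 and 0.54. FBP1, a gluconeogenic enzyme, fell in all 4 at 24 h, by 0.27, 0.34, 0.26 and 0.43, while PCK2, the mitochondrial PEP carboxykinase, rose in IRS-1 #10 (0.39) and clone #20 (0.60), with an isoform difference of -0.54 (adjusted p = 2.69e-08). FBP1 rose in SFM alone from 4 h to 24 h in clones #1 and #6, by 0.20 and 0.30. Its 24 h falls there are thus against a raised control. PCK2 rose in SFM in clone #6, by 0.21. Of the 13 genes, 0 rose and 1, 3, 1 and 2 fell at 4 h in clones #10, #20, #1 and #6. At 24 h 1 rose and 2 fell, 2 and 1, 0 and 1, and 0 and 2, beside the same all-gene shares as for the hypoxia targets. None of 6 genes of the pentose phosphate pathway passed with IGF-I, beside all-gene shares of 0.794% to 7.46% per direction. With 6 genes this says little about the pathway.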

How the data were processed

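RNA of 48 samples, 3 per group, was hybridised to GeneChip Human Genome U133 Plus 2.0 arrays. The deposited values are log2 levels that the authors made with GCRMA (version not given in the sources used here), and the later scaling to untreated cells that their methods describe is not in them. Array data give no counts, so the 3 arrays of a group limit the precision. Of 54675 probe sets, 62 controls were left out. Means of the 16 groups were fitted to the other 54613 in limma 3.58.1 (R 4.3.3; empirical Bayes with an intensity trend, 32 residual degrees of freedom), two-sided, with Benjamini-Hochberg adjustment within each comparison, and self-tested on simulated data. No replicate block was used: the deviations of SFM and IGF-I arrays of 1 letter from their group means had r above 0.1 in 3 of 24 pairs (-0.44 to 0.30). A gene was represented by its brightest probe set with a single symbol by mean over all arrays. Array values are given for ADM, for members past the test and 1.5-fold with IGF-I, and for the 5 largest passing differences of each kind of comparison; the others are given by range and count, and genes outside the list were chosen for naming after their values were seen. Members and lists were chosen with earlier results of these data known. Other scalings, filters, probe sets, thresholds, fits without 1 letter and the methods' t-test were run as alternatives. Promoters came from RefSeq GRCh38.p14, and figures from Python 3.11.15 and matplotlib 3.10.9.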

Additional observations from a re-analysis of the deposited data

Results flagged for a closer look

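These results are given because an effect of IGF-I differed between isoforms, clones or times in a test of the difference itself, on the log2 scale. Between isoforms as labelled (IRS-2 minus IRS-1) the ADM response at 4 h differed by 0.46. By median none of the IRS1 and IRS2 probe sets bore out those labels, as given above. Between the IRS-1 clones at 24 h (#20 minus #10) the responses of VEGFA, KDM3A and MXI1 differed by 0.73, 0.48 and 0.44. The SFM levels of KDM3A and MXI1 fell in clone #20 from 4 h to 24 h, by 0.42 and 0.38. The SFM change of VEGFA there did not pass. Between times (24 h minus 4 h) the PFKP response differed by 0.54 in IRS-1 #10, 0.60 in clone #20 and 0.49 in clone #1. The ADM response differed by -0.51 in IRS-2 #1 and -0.56 in clone #6 between times. The VEGFA response differed by 0.43 in IRS-1 #20 and by -0.45 in clone #6. The CA12 response in IRS-2 #1 differed by 0.28. In IRS-1 #20 the other time differences were 0.44 for KDM3A, 0.36 for P4HA2, 0.31 for GPI, 0.25 for ERO1A, 0.25 for LDHB, 0.18 for ALDOA, -0.39 for SLC2A3 and -0.40 for EGLN3. Over the same time in SFM alone, KDM3A, GPI, ERO1A, LDHB and ALDOA fell and SLC2A3 rose in clone #20. PFKP fell in SFM in clones #20 and #1, and CA12 in clone #1. The part of these control changes in the differences was not tested. Both IRS-1 clones and both IRS-2 clones are single isolates.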

How the results depend on the processing

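The ADM isoform difference at 4 h, 0.46, kept its direction and its call under quantile normalization, median centring, the dim filter, no intensity trend, the mean of probe sets, the replicate block and without letter A, B or C (0.41 to 0.49, adjusted p = 4.84e-06 to 0.0158), and not past 1.5-fold or 2-fold. It was not run on second probe sets (ADM has 1), in fits of 6 arrays, by the methods' t-test or on linear values. Asking for 1.5-fold or 2-fold left 0 members of the 20 calls with IGF-I at 4 h, 1 and 0 of the 24 at 24 h, 0 and 0 for the 1 isoform call, 1 and 0 of the 3 clone calls, 1 and 0 of the 11 SFM isoform calls, and 0 and 0 of the 39 SFM time calls. The methods' t-test gave 0 at 4 h and 1 at 24 h at the study's thresholds and 0 and 0 after Benjamini-Hochberg, and linear values 0 and 1. The 4 h calls were 13 on second brightest probe sets and 13 in fits of 6 arrays, and the 24 h calls 14 after median centring. At 24 h the isoform calls, 0 in limma, were 2 after quantile normalization, 1 on the mean of probe sets and 2 on second probe sets, where the IRS-1 clone calls were 1. Without 1 letter the counts ran from 9 to 13 at 4 h, 9 to 15 at 24 h, 1 to 3 for the IRS-1 clones, 8 to 9 for SFM isoforms and 18 to 32 for SFM time.

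No label says whether the letters pair samples. With the replicate block, an effect of each letter shared by all groups, the counts were 20, 24, 1, 0, 3, 11 and 38, and the ADM difference 0.46. Such a block cannot show a pairing within a clone and time. Of 191 single differences past the threshold, the block lost 3, quantile normalization 23, median centring 28, no intensity trend 19, the dim filter 0, and leaving out letter A, B or C 40, 63 and 57, none with a change of sign.

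Signs turned on second brightest probe sets alone, in 31 of 131 differences, and the cause was not tested. With IGF-I these were KDM3A (0.083 in IRS-1 #20 and 0.15 in clone #6 at 4 h, 0.060 in clone #10 at 24 h) and, at 24 h, PFKP (-0.084 in clone #10, -0.18 in clone #20 and -0.19 in clone #1), HK2 (0.17 in clone #10), P4HA1 (-0.036) and ERO1A (-0.011) in clone #20. For the response at 24 h minus 4 h they were PFKP (-0.11, -0.32 and -0.38 in clones #10, #20 and #1) and, in clone #20, SLC2A3 (0.068), ERO1A (-0.11) and KDM3A (-0.0071). For SFM over time they were PFKP (0.29 in IRS-1 #20 and 0.15 in clone #1), EGLN1 (0.034) and KDM3A (0.10) in clone #20, and ANKRD37 (-0.044) and P4HA1 (-0.0022) in clone #1. For SFM levels they were PFKFB4 at 4 h (-0.076 for #1 and -0.21 for #6 minus #10, -0.020 and -0.15 minus #20) and at 24 h (-0.060 for #1 and -0.076 for #6 minus #20), BNIP3 at 4 h (0.033 for #1 minus #10) and PDK3 for #6 (-0.12 minus #10 at 4 h, -0.26 minus #10 and -0.024 minus #20 at 24 h).

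Clone and isoform are separated here by 2 clones each, and the spread between clones of 1 isoform is not part of any p.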
